A study of Homo sapiens with 8 samples.

Results

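Glutathione S-transferases were followed across 3 human cell lines sequenced as native RNA on nanopores. The 9 genes were the annotated entries named GSTP1, GSTA1, GSTA2, GSTM3, GSTO1, GSTK1, MGST1, MGST2 and MGST3 among 20565 annotated genes, and their reads were summed over all transcript models. The lines were HepG2, a hepatocellular carcinoma line, with 3 libraries, K562, a leukaemia line, with 2, and GM12878, a B-lymphoblastoid line, with 3. None of the lines carried a treatment in the labels, each is a single line, and the labels do not say whether the libraries of a line came from separate cultures, so each p-value here sets lines against library-to-library spread, which may be technical. Each read stands for 1 RNA molecule that passed through a pore, and TALON, a program for long reads, assigned it to an annotated or a newly built transcript model. The 9 genes held 3730 reads in 334 models.

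Glutathione S-transferases join the thiol of glutathione to reactive, mostly oily molecules, which makes them soluble and ready for export from the cell. The soluble enzymes are named by class: pi (GSTP1), alpha (GSTA1 and GSTA2), mu (GSTM3) and omega (GSTO1). GSTK1, of the kappa class, works in mitochondria and peroxisomes and is built on a different fold. MGST1, MGST2 and MGST3 are an unrelated family of proteins set in membranes of the endoplasmic reticulum. In the liver, alpha class enzymes are among the abundant soluble proteins of hepatocytes, while the pi class is found mainly in other tissues.

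Read totals were 70374 to 461497 per library, lowest in GM12878 replicate 3. Marker genes fitted HepG2 as liver-derived, with 8 of 8 hepatocyte markers read and a summed level of 95722 to 119503 CPM (reads scaled to the size of the library), against 0 to 23.3 CPM in GM12878. All 8 B-cell markers were read in GM12878, at a summed 11027 to 11642 CPM. The labels give K562 the same cell type as GM12878, but its libraries held 3.45 to 6.49 CPM of the B-cell markers, with CD79B, CD79A, MS4A1, PAX5, HLA-DRA and IGHM at 0, and 33874 to 36407 CPM of 8 erythroid markers. K562 is therefore called by its line name alone. Markers of T and NK cells summed to 0 to 5.28 CPM in HepG2, 13.0 to 27.6 CPM in K562 and 225 to 297 CPM in GM12878, and fibroblast markers to at most 27.6 CPM in any library. Myeloid markers summed to 1569 to 1963 CPM in HepG2, with MPO and CSF1R at 0, and to at most 6.67 CPM in the other lines. In GM12878, CD3D and CD3E were at 0. Whether these marker reads came from other cells or from the lines themselves was not tested. Between libraries of 1 line, chi-square per degree of freedom over genes was 3.53 for the K562 pair, against 1.23 to 2.22 for the 6 pairs of HepG2 and GM12878. This touches several results below. The tests share 1 spread per gene over all lines, so p-values in comparisons with K562 may be too small.

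The lines differed in which transferase held the most reads. GSTP1 supplied most of the reads of the 9 genes in K562 and GM12878 and none in HepG2, whereas GSTA1, GSTA2, GSTM3 and MGST2 were mainly HepG2 transcripts. GSTO1 was abundant in every line. Genes were tested with edgeR's quasi-likelihood test over 4778 genes that passed a filter on low counts, and a gene was called at a Benjamini-Hochberg adjusted p under 0.05 and a change of at least 2-fold. Of the 9 genes, 8 passed the filter and GSTA2 did not. GSTP1, GSTA1 and GSTM3 had no reads in at least 1 line and passed through the lines where they were read, so a call on them was partly set by the filter.

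Against GM12878, HepG2 had higher GSTA1, GSTM3, MGST1 and MGST2, which is 4 of the 8 tested, beside 28.0% of all tested genes called higher. It had lower GSTP1, which is 1 of the 8, beside 21.1% called lower. Against GM12878, K562 had higher GSTK1 and MGST3, 2 of the 8 tested, beside 13.9% of tested genes. No gene of the family was called lower, beside 14.8%, with 0 also at an unadjusted p under 0.05 and by DESeq2. Against HepG2, K562 had higher GSTP1 and GSTK1, 2 of the 8 tested, beside 17.4% of tested genes. It had lower GSTA1, GSTM3, MGST1 and MGST2, 4 of the 8, beside 26.7%. The comparisons share libraries, so a gene with reads in 1 line alone is called in both comparisons of that line. The GSTK1 and MGST3 calls in K562 were lost without its second library. That leaves 1 K562 library, which is assumed to vary like those of the other lines.

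**Figure D1:**
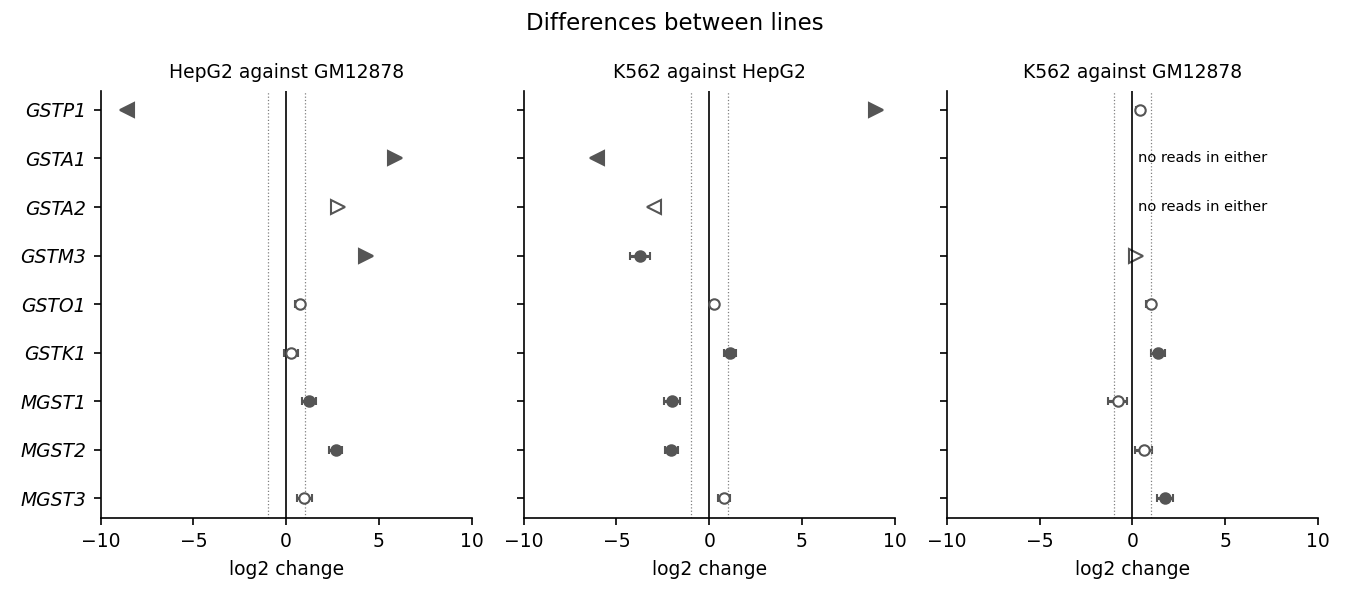
Change of each gene on a log2 scale in the 3 comparisons, with the first-named line on top of the ratio, zero as a solid line and the 2-fold limits dotted. Circles are edgeR estimates with their standard error, triangles are bounds for genes with 0 reads in 1 line (its level set at 3 counts over the line), and filled symbols were called. GSTP1 sits farthest from zero on the low side for HepG2 against GM12878 and on the high side for K562 against HepG2.

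GSTP1 (ENSG00000084207.16, chromosome 11, 67583595 to 67586656 on GRCh38, plus strand) encodes the pi class enzyme, which besides conjugation is known to bind the stress kinase JNK. HepG2 libraries held 0 reads of GSTP1 in each of the 3. K562 libraries had 1668 and 2139 CPM, and GM12878 libraries had 1460, 1513 and 1293 CPM. The 3 lines did not overlap. The 0 reads in HepG2 allow up to 3.76 CPM, 3 counts over the line, so GSTP1 was at least 378-fold lower in HepG2 than in GM12878 (edgeR adjusted p = 2.97e-27), and at least 506-fold higher in K562 than in HepG2 (edgeR adjusted p = 8.29e-28). K562 averaged 1903 ± 333 CPM (SD, n = 2) and GM12878 1422 ± 114 CPM (SD, n = 3). The difference between K562 and GM12878, a log2 change of 0.42 ± 0.20 (SE), was not called (edgeR adjusted p = 0.115). Since each library is made from many cells, fewer cells with the RNA and less RNA per cell cannot be told apart.

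The promoter window of GSTP1, the 250 bases before and 50 after its start in RefSeq (chr11:67583562-67583861, plus strand, GRCh38.p14), is shown because this gene is the one whose level splits the lines most. Capitals mark the match to TGACNNNGC, the core of the antioxidant response element, the site through which the transcription factor NRF2 acts on many genes of this family.
GSTP1: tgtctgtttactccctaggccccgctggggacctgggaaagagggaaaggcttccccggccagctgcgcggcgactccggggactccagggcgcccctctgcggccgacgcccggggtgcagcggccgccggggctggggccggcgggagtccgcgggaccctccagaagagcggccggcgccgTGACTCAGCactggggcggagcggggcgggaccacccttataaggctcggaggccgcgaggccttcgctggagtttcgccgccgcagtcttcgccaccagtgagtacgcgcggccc
The match, TGACTCAGC, lies at -66, counted from the RefSeq start base as 0. In GENCODE, exon 1 of GSTP1-202, the transcript used below, runs from 67583595 to 67583844, so the match lies inside that exon. The core was searched on both strands in the windows of the 8 genes that RefSeq's table lists, and 13.3% of 35116 promoters of the same length hold it. GSTO1 holds it at -226 and -161, and 1 of 3 listed MGST1 windows holds it at 30. The GC box letters GGGCGG, also searched on both strands, occur 2 times in the GSTP1 window and in 45.0% of all promoters. They also occur 2 times each in the GSTO1, GSTK1 and MGST3 windows and in 1 MGST1 window, and 1 time in another MGST1 window. The GSTP1 window holds 36 CG pairs, more than 87.3% of promoters do. The windows of GSTA1, GSTA2 and GSTM3 hold 4, 1 and 1, against a median of 14. Those of MGST3, GSTO1 and GSTK1 hold 22, 19 and 17, and the 3 MGST1 windows hold 18, 19 and 4. The GSTM3 window (chr1:109740989-109741288, minus strand) does not cover the start of GSTM3-201, the known GSTM3 model with most reads, at 109740516. The CG count of that window is therefore not that of the GSTM3-201 promoter. These letter matches are descriptions and carry no measurement of binding or methylation in the 3 lines.

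GSTA1 and GSTA2 are alpha class enzymes, whose proteins were named ligandins for binding bilirubin and other liver metabolites. GSTA1 (ENSG00000243955.5, chromosome 6, 52791664 to 52803910, minus strand) had 394, 417 and 531 CPM in the HepG2 libraries, and 0 reads in each K562 and GM12878 library. Its mean of 447 ± 73.2 CPM (SD, n = 3) in HepG2 was at least 58.6-fold higher than in GM12878 (edgeR adjusted p = 2.42e-16), and K562 was at least 66.2-fold lower than HepG2 (edgeR adjusted p = 7.34e-16). GSTA2 (ENSG00000244067.2, chromosome 6, 52750089 to 52763569, minus strand) lies 28094 bases from GSTA1. It had 50.3, 42.3 and 66.3 CPM in HepG2, from 43 reads, and 0 reads in each library of K562 and GM12878. The HepG2 mean of 53.0 ± 12.2 CPM (SD, n = 3) was at least 6.94-fold higher than in GM12878, and K562 was at least 7.84-fold lower than HepG2. GSTA2 failed the filter and has no adjusted p in this fit. With no filter it was called in both comparisons (edgeR adjusted p = 3.70e-06 against GM12878 and 7.21e-06 for K562 against HepG2). Both alpha genes were thus read in HepG2 and in neither of the other lines.

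The 2 alpha genes are close copies. Their coding sequences, 666 bases each in GSTA1-201 and GSTA2-201, are identical at 644 positions, or 96.7%. The 60 coding bases from base 314 to base 373 are shown because they hold 7 of the 22 differences, in capitals.
GSTA1: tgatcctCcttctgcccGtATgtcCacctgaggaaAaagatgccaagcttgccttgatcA
GSTA2: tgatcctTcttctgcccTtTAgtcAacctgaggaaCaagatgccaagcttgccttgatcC
Reads of such close copies can be split wrongly by an aligner, so the level of each in HepG2 is less certain than their sum, while the 0 reads in the other lines hold for both. Their 300-base promoter windows are also alike, with 288 identical bases, or 96.0%, and 7 of the 12 differences lie before the start. Both windows are shown because the genes moved together across the lines, with capitals on TATAAA, the TATA box letters, at -30 in both.
GSTA1: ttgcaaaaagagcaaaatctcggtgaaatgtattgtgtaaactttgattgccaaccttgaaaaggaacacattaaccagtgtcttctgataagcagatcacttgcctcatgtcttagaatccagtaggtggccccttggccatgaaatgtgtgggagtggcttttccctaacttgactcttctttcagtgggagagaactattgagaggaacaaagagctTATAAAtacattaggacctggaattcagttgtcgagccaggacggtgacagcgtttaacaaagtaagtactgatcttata
GSTA2: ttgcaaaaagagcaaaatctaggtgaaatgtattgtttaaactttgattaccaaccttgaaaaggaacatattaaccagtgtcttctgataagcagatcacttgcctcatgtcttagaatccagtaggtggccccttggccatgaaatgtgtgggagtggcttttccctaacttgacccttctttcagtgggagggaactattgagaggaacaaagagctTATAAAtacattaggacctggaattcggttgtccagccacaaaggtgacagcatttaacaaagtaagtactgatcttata
The windows are chr6:52803767-52804066 for GSTA1 and chr6:52763426-52763725 for GSTA2, minus strand, from RefSeq on GRCh38.p14. In GENCODE, exon 1 is 52803785 to 52803910 in GSTA1-201 and 52763444 to 52763569 in GSTA2-201. Both exons begin before the RefSeq starts and hold the TATAAA letters. TATAAA, searched on both strands, occurs in 11.5% of all promoters.

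GSTM3 (ENSG00000134202.10, chromosome 1, 109733932 to 109741038, minus strand) is the mu class enzyme known from testis and brain. The HepG2 libraries had 148, 148 and 162 CPM of GSTM3. K562 had 0 reads in 1 library and 5 reads, or 17.2 CPM, in the other, and GM12878 had 0 in each library. HepG2 stood apart, with a mean of 153 ± 8.17 CPM (SD, n = 3), higher than GM12878 by a log2 change of at least 4.32 (edgeR adjusted p = 4.44e-10). K562 was lower than HepG2 by a log2 change of -3.72 ± 0.54 (SE, edgeR adjusted p = 8.09e-08). Without K562 replicate 1 that change was -3.10, and without K562 replicate 2, where K562 has 0 reads left, the fitted value was -7.88, which depends on the prior count and is no bound. The 5 reads in K562 did not separate it from GM12878 (edgeR adjusted p = 0.0584). Without K562 replicate 1 the difference was called (edgeR adjusted p = 0.0161), with K562 then being 1 library of 5 reads whose spread is taken from the other lines. On the other strand, GSTM3 overlaps GSTM5, with 0 reads, and the antisense gene AL158847.1, with 6 reads over all libraries.

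GSTO1 (ENSG00000148834.12, chromosome 10, 104235356 to 104267459, plus strand) is the omega class enzyme, which uses glutathione to reduce dehydroascorbate and methylated arsenic. It had 506, 523 and 667 CPM in HepG2, 519 and 818 CPM in K562, and 333, 413 and 239 CPM in GM12878. The GM12878 libraries were all below those of the other lines, and HepG2 and K562 overlapped. HepG2 against GM12878 gave a log2 change of 0.73 ± 0.23 (SE, edgeR adjusted p = 0.00616) and K562 against GM12878 one of 0.99 ± 0.25 (SE, edgeR adjusted p = 0.00147). Both passed on p and fell short of the 2-fold limit, so neither was called. The K562 value sits at that limit: it was called with DESeq2 size factors (log2 change of 1.02), with DESeq2's own test (1.02), with no filter (1.17), with HepG2 left out (1.03), without GM12878 replicate 2 (1.31) and without K562 replicate 1 (1.25).

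GSTK1 (ENSG00000197448.13, chromosome 7, 143244093 to 143270854, plus strand), the kappa class enzyme, had 104, 127 and 95.8 CPM in HepG2, 143 and 307 CPM in K562, and 46.7, 122 and 98.4 CPM in GM12878. Both K562 libraries were above all others, and the HepG2 and GM12878 libraries overlapped. K562 was higher than GM12878 by a log2 change of 1.40 ± 0.37 (SE, edgeR adjusted p = 0.00242) and higher than HepG2 by 1.12 ± 0.33 (SE, edgeR adjusted p = 0.00347). The K562 libraries lay 2.15-fold apart. Without K562 replicate 2 the changes were 0.68 against GM12878 (edgeR adjusted p = 0.321) and 0.41 against HepG2 (edgeR adjusted p = 0.458), and neither was called. Without GM12878 replicate 1 the change against GM12878 was 1.04 (edgeR adjusted p = 0.0518). In HepG2 against GM12878 the log2 change was 0.27 ± 0.37 (SE, edgeR adjusted p = 0.550).

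MGST1 (ENSG00000008394.12, chromosome 12, 16347142 to 16609259, plus strand) is a membrane enzyme with both transferase and peroxidase activity and is known as an abundant liver protein. It had 130, 116 and 170 CPM in HepG2, 38.9 and 31.0 CPM in K562, and 66.7, 40.7 and 84.4 CPM in GM12878. No lines overlapped, with HepG2 at the top and K562 at the bottom. HepG2 was higher than GM12878 by a log2 change of 1.22 ± 0.38 (SE, edgeR adjusted p = 0.00531), and K562 was lower than HepG2 by -2.02 ± 0.43 (SE, edgeR adjusted p = 9.27e-05). Without GM12878 replicate 2 the first of these was 0.97 and no longer called (edgeR adjusted p = 0.0715). K562 against GM12878, from 15 and 23 reads, gave -0.79 ± 0.53 (SE, edgeR adjusted p = 0.267).

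MGST2 (ENSG00000085871.8, chromosome 4, 139665768 to 139740745, plus strand) can make leukotriene C4 from leukotriene A4 and glutathione. It had 335, 312 and 273 CPM in HepG2, 38.9 and 96.6 CPM in K562, and 26.7, 75.6 and 28.1 CPM in GM12878. All 3 HepG2 libraries were above the rest, and K562 and GM12878 overlapped. HepG2 was higher than GM12878 by a log2 change of 2.67 ± 0.36 (SE, edgeR adjusted p = 1.05e-08), and K562 was lower than HepG2 by -2.05 ± 0.35 (SE, edgeR adjusted p = 1.77e-06). Both calls held with each library left out in turn, with a change of 3.50 in HepG2 against GM12878 without GM12878 replicate 2 and of -2.96 in K562 against HepG2 without K562 replicate 2. K562 against GM12878 gave 0.62 ± 0.47 (SE, edgeR adjusted p = 0.341).

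MGST3 (ENSG00000143198.12, chromosome 1, 165630861 to 165661796, plus strand) is a membrane protein with glutathione peroxidase activity. It had 94.8, 100 and 88.4 CPM in HepG2, 117 and 200 CPM in K562, and 53.3, 58.2 and 14.1 CPM in GM12878, the lowest of these from 1 read. No lines overlapped, with K562 at the top and GM12878 at the bottom. K562 was higher than GM12878 by a log2 change of 1.78 ± 0.43 (SE, edgeR adjusted p = 0.000725), and without K562 replicate 2 by 1.28, which was not called (edgeR adjusted p = 0.0701). HepG2 against GM12878 gave 0.98 ± 0.42 (SE, edgeR adjusted p = 0.0433) and K562 against HepG2 gave 0.80 ± 0.34 (SE, edgeR adjusted p = 0.0482). Both passed on p and not on the 2-fold limit.

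**Figure D2:**
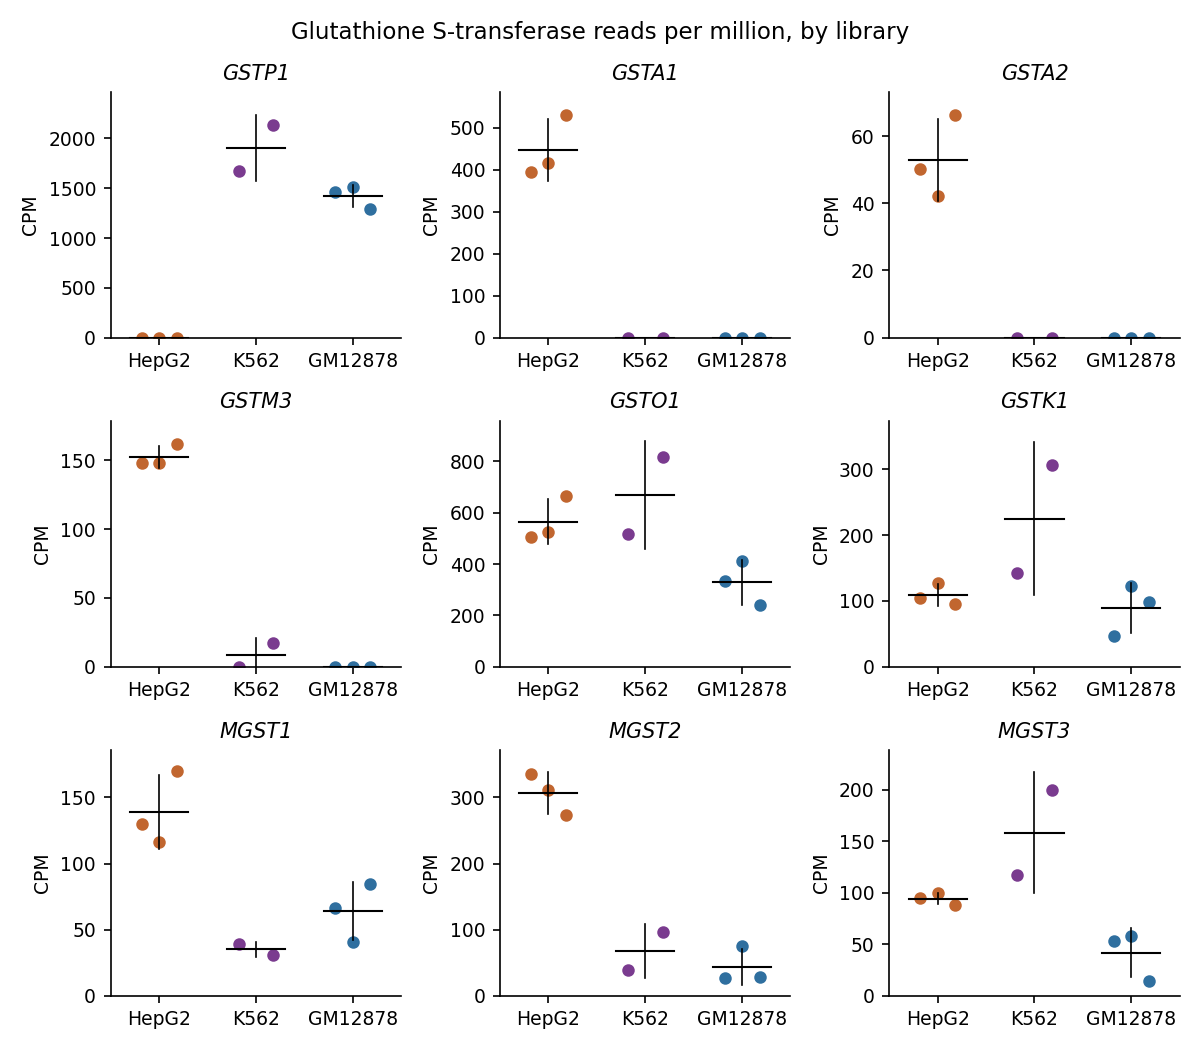
CPM of the 9 genes in each library, 1 panel per gene with its own axis from 0, in HepG2, K562 and GM12878. Points are libraries, horizontal lines are means and vertical lines 1 SD. GSTP1 is at 0 in the 3 HepG2 libraries, and GSTA1 and GSTA2 are at 0 in the 5 others.

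Summed over the 9 genes, HepG2 libraries had 1762, 1785 and 2054 CPM, K562 libraries 2525 and 3609 CPM, and GM12878 libraries 1986, 2222 and 1757 CPM. The sum thus overlapped between HepG2 and GM12878 although its make-up differed. In HepG2 no single gene held most reads: GSTO1 took 30.2% ± 2.03 of them, GSTA1 23.9% ± 1.80 and MGST2 16.6% ± 2.95 (SD, n = 3). In K562 GSTP1 took 62.7% ± 4.80 and GSTO1 21.6% ± 1.48 (SD, n = 2). In GM12878 GSTP1 took 71.7% ± 3.17 and GSTO1 16.3% ± 2.52 (SD, n = 3). These shares are of reads, 1 per molecule.

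Per kilobase of the mean length of each gene's models, weighted by reads, HepG2 had 689 CPM of GSTO1, 548 of GSTA1, 455 of MGST2, 163 of MGST1, 140 of MGST3, 111 of GSTK1, 90.3 of GSTM3 and 45.6 of GSTA2. K562 had 2785 CPM per kilobase of GSTP1, 771 of GSTO1, 229 of GSTK1, 224 of MGST3, 93.6 of MGST2, 44.4 of MGST1 and 13.2 of GSTM3. GM12878 had 2070 CPM per kilobase of GSTP1, 377 of GSTO1, 96.9 of GSTK1, 74.3 of MGST1, 62.4 of MGST3 and 59.6 of MGST2. On this scale GSTM3 moved to 7 in the HepG2 order from 4 on CPM alone, since its models averaged 1694 bases. Neighbours such as GSTK1 and MGST3 in K562, or MGST1, MGST3 and MGST2 in GM12878, lay within the spread of their libraries. Each read stands for an RNA molecule whatever its length, so CPM already follows molecules, and dividing by length lowers genes with long models. The move of GSTM3 comes from that division alone and does not mean fewer GSTM3 molecules. The order on CPM is the order in molecules read.

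**Figure D3:**
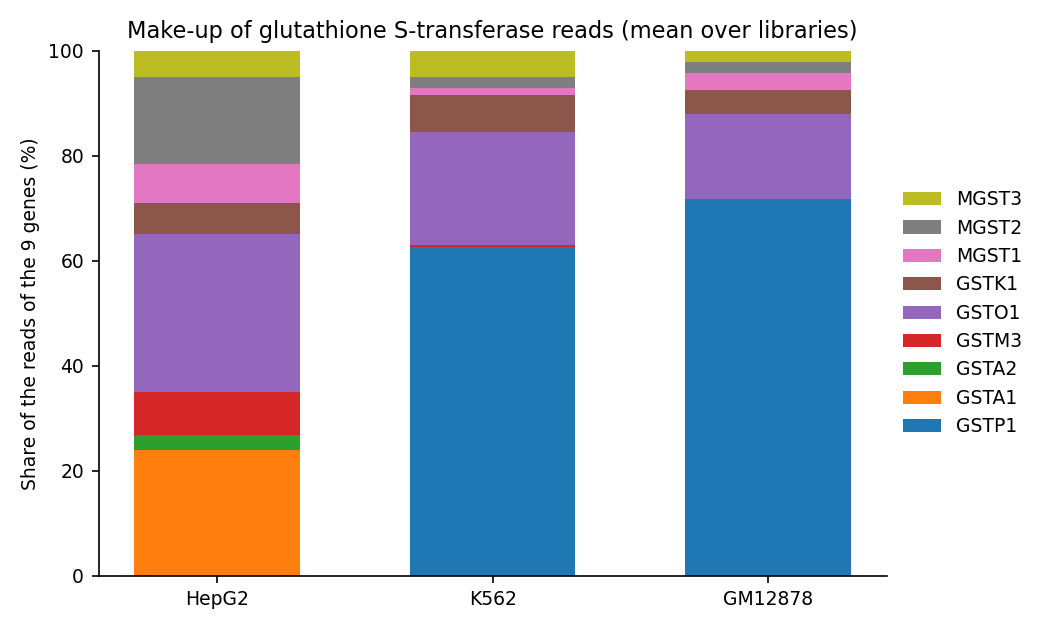
Mean share (%) of each gene among the reads of the 9 genes, stacked, in HepG2, K562 and GM12878. GSTP1 fills 62.7% of the K562 bar and 71.7% of the GM12878 bar, and the HepG2 bar is divided over 8 genes.

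TALON's model classes gave a second view of the same reads. A known model has the splice junctions of an annotated transcript, an incomplete splice match has an unbroken part of them, a new combination joins annotated splice sites in a way not annotated, and a further class holds unannotated splice sites. Known models took 40.0 to 45.0% of the reads of the 9 genes in HepG2 libraries, 17.5 to 20.7% in K562 and 15.2 to 24.2% in GM12878. Over all genes they took 37.9 to 41.6% in HepG2, 47.7 to 47.8% in K562 and 44.8 to 46.1% in GM12878. Without GSTP1 the gap was smaller in K562, and the GM12878 libraries lay on both sides of the share over all genes: known models took 37.9 and 39.7% of the reads of the other 8 genes in the K562 libraries and 59.5, 43.4 and 42.4% in the GM12878 libraries.

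Only 120 of 1448 GSTP1 reads, 8.29% (exact 95% interval 6.92 to 9.83%), were in known models, while 1150, or 79.4% (77.2 to 81.5%), were in new combinations. Intervals cover counting error only. MGST2 was at the other end, with 66.2% of 299 reads in known models and 1.67% in new combinations. The known share was 58.7% of 150 reads for MGST1, 46.5% of 43 for GSTA2, 42.5% of 127 for GSTM3, 39.8% of 906 for GSTO1, 36.5% of 356 for GSTA1, 31.2% of 231 for GSTK1 and 27.1% of 170 for MGST3. GSTM3 and MGST3 had the largest shares of unannotated splice sites among the 9 genes, 21.3% and 13.5%. Of 714 reads in incomplete splice matches, 648, or 90.8%, were suffixes, which keep the last exons and lack the first. Direct RNA reads start at the poly(A) tail, so a read that ends early lacks the 5′ end. How many models are such reads was not tested.

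**Figure D4:**
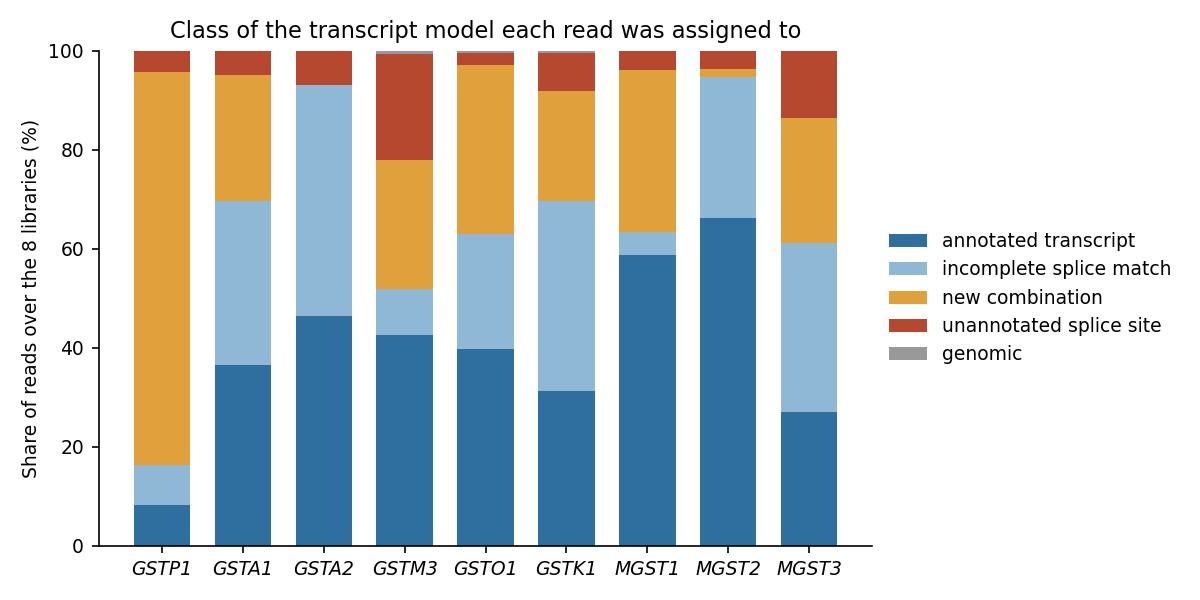
Share (%) of each gene's reads over the 8 libraries by the class of the assigned model, stacked. GSTP1 has 79.4% of its reads in new combinations, and MGST2 has 66.2% in annotated transcripts.

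Most GSTP1 reads sat in models close in length to the last exons of GSTP1-202, the annotated transcript of 7 exons and 961 bases, which itself took 75 reads. A 6-exon new combination of 705 bases took 289 reads, a 5-exon one of 669 bases took 821, and a 4-exon suffix took 100. The first step between them is 36 bases, the length of exon 2 of GSTP1-202 (chromosome 11, 67584134 to 67584169, coding), and the next, to the 4-exon suffix, is 107 bases, the length of exon 3 (67584464 to 67584570, coding). All 3 are 6 bases shorter than the last 6, 5 and 4 exons of GSTP1-202 summed (705 against 711 bases for the 6-exon model), so the step from the full transcript is not exactly its first exon. Exon 2 is shown in capitals, with 12 bases on each side in the spliced transcript, because its presence is what separates the 2 leading models by length.
GSTP1-202: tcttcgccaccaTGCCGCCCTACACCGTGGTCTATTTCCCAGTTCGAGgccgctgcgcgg
In the annotation the coding sequence begins at base 250, the last base of exon 1, and exon 2 begins at base 251, so the start codon spans the junction of exons 1 and 2. A model that begins at exon 2 or exon 3 would hold no complete start codon of GSTP1-202. The new combination class means that TALON did not read these models as an unbroken part of 1 annotated transcript, and coordinates of the models were not used here, so the equal lengths do not show that the exons are the same.

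The steps had like shares in the lines where GSTP1 was read. The 5-exon step held 58.2% ± 0.716 of GSTP1 reads in K562 (SD, n = 2) and 57.4% ± 2.68 in GM12878 (SD, n = 3). The 6-exon step held 21.5% ± 0.653 and 18.4% ± 1.85, and the full 7 exons of GSTP1-202 held 3.98% ± 1.22 and 5.18% ± 4.51. Exon 1 of GSTP1-202, of 250 bases, begins before the RefSeq start. A 7-exon model with a shorter first exon would not count as full, so the full share depends on the reference. Among GSTP1 models with at least 10 reads, only GSTP1-202 had 7 exons. GSTO1 had a different profile: models with all 6 exons and the length of GSTO1-202 (972 bases), within 10 bases, held 49.8% ± 6.25 of its reads in HepG2 (SD, n = 3), 63.3% ± 6.49 in K562 (SD, n = 2) and 71.6% ± 13.5 in GM12878 (SD, n = 3). There were 7 such models with 526 reads, and the 4 with at least 10 reads were the known transcript, with 292 reads, and new combinations of 976, 968 and 972 bases, with 163, 38 and 24 reads. GSTA1 had 128 reads in the known GSTA1-201 of 7 exons and 1019 bases and 78 in a 6-exon new combination of 893 bases, 126 bases or 1 first exon shorter. MGST1 had 70 reads in MGST1-205 of 914 bases and 42 in a 3-exon new combination of 852 bases, again 1 first exon (62 bases) shorter.

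**Figure D5:**
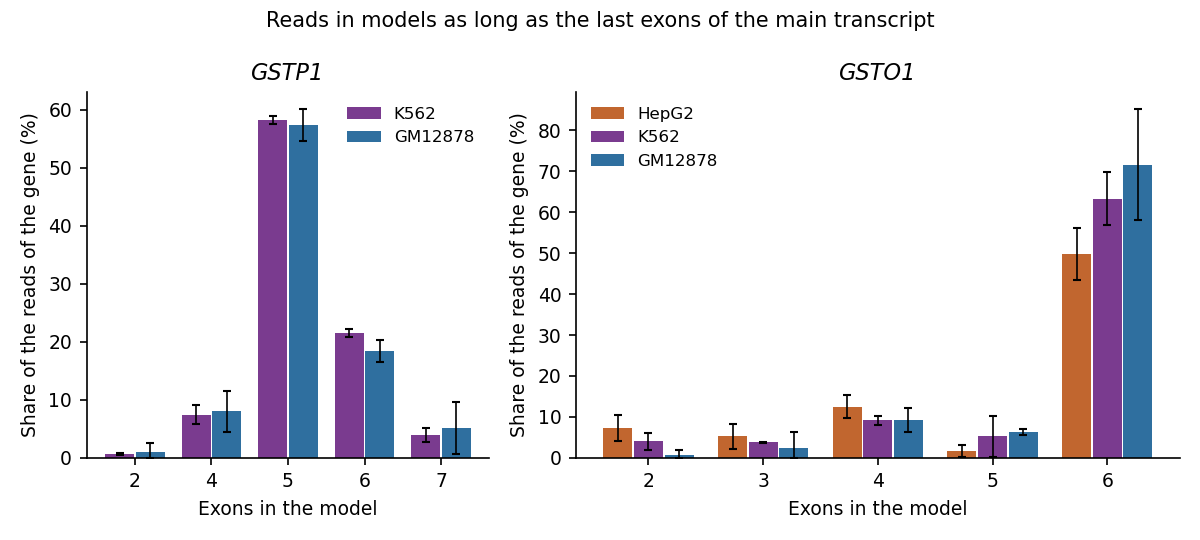
Share (%) of the reads of GSTP1 (left; K562 and GM12878) and GSTO1 (right; HepG2, K562 and GM12878) in models whose length is within 10 bases of the last exons of the main transcript, by number of exons. Bars are means over libraries and lines 1 SD. GSTP1 peaks at 5 of 7 exons, at 58.2% in K562 and 57.4% in GM12878, and GSTO1 at all 6.

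The use of known transcripts was tested with edgeR's diffSpliceDGE for genes with at least 2 known models of 10 reads or more. GSTO1 could be tested in the 3 comparisons, MGST1 in HepG2 against GM12878 and GSTP1 in K562 against GM12878. None of them was called, and 0 had an unadjusted p under 0.05. Over all genes tested, 1.75% were called in HepG2 against GM12878, 0.571% in K562 against GM12878 and 1.15% in K562 against HepG2. The shares of reads that follow count only models with at least 10 reads in total, and models with fewer are left out. GSTO1-202 took 80.5% of 159 such known reads in HepG2, 85.2% of 122 in K562 and 88.2% of 68 in GM12878, and the rest were GSTO1-204. GSTP1-202 took 59.4% of 64 such known reads in K562 and 68.5% of 54 in GM12878, and the rest were a known transcript of 3 exons. MGST1-205 took 85.2% of 61 such known reads in HepG2 and 80.0% of 15 in GM12878, and the rest were MGST1-208. Over models of all classes, an alternative added after seeing the data, 1.81% of 2324 genes were called in HepG2 against GM12878, 1.07% of 2154 in K562 against GM12878 and 0.716% of 2515 in K562 against HepG2, and no family gene was called in any. GSTO1 had an unadjusted p of 0.0235 in HepG2 against GM12878 (diffSpliceDGE adjusted p = 0.308). There GSTO1-202 took 34.5% of 371 reads in models with at least 10 reads in HepG2, and 47.2% of 127 in GM12878. MGST2 had an unadjusted p of 0.0425 in K562 against HepG2 (diffSpliceDGE adjusted p = 0.682). There MGST2-201 took 82.8% of 29 reads in models with at least 10 reads in K562, and 70.0% of 213 in HepG2. In K562 against GM12878 the 5-exon GSTP1 model took 59.9% of 835 reads in K562 and 59.6% of 539 in GM12878. These are the GSTP1 reads in models with at least 10 reads, not all GSTP1 reads.

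Other genes of glutathione use were taken from fixed lists, chosen with earlier results of these data known. Called list genes with 0 reads in a line passed the filter through the lines where they were read, so these calls, and the list counts and medians with them, were partly set by the filter. Of 17 further transferases and related membrane proteins, 10 were in the tables and 2 passed the filter. Of these 2, 1 was called, lower in HepG2 and in K562 than in GM12878, beside 21.1% and 14.8% of all tested genes. That was ALOX5AP, a membrane protein of leukotriene synthesis, with 1 read in HepG2, 0 in K562 and 47 in GM12878, or 113 ± 25.7 CPM (SD, n = 3), so that K562 was at least 16.8-fold lower than GM12878 (edgeR adjusted p = 1.25e-07).

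Of 18 genes of glutathione synthesis and breakdown, 9 were tested. In HepG2 against GM12878, 6 were higher, 4 of them with 0 reads in GM12878, and 1 lower, beside 28.0% and 21.1% of all tested genes. The median log2 change was 1.62, beside 0.02 over all tested genes; setting genes with 0 reads at their bound left the medians of this and the next 2 lists as they were. ANPEP and DPEP1, surface peptidases that split the products of glutathione breakdown, had 159 ± 71.6 and 111 ± 23.2 CPM in HepG2 (SD, n = 3) and 0 reads in GM12878. GGCT, which releases 5-oxoproline, was lower in HepG2, at 29.9 ± 7.72 CPM against 84.2 ± 2.62 in GM12878 (SD, n = 3 each). In K562 against GM12878, 4 were higher, 2 of them with 0 reads in GM12878, and none lower (0 also at an unadjusted p under 0.05 and by DESeq2), beside 13.9% and 14.8% of tested genes, with a median of 1.03, beside 0.00. CBS, which feeds cysteine synthesis, had 128 ± 33.9 CPM in K562 (SD, n = 2) and 0 reads in GM12878, and SLC3A2, a subunit of the cystine carrier, had 352 ± 176 CPM in K562 and 105 ± 7.49 in GM12878. In K562 against HepG2, 2 were higher and 3 lower, beside 17.4% and 26.7% of tested genes, with a median of 0.02, beside -0.07. Of the 3 lower, 1 had 0 reads in K562. GGT1, which opens glutathione breakdown at the cell surface, had 21.6 ± 6.16 CPM in K562 and 102 ± 9.15 in HepG2.

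Of 14 peroxidases, reductase, glutaredoxins and glyoxalases, 12 were tested. HepG2 had 5 higher and none lower than GM12878 (0 lower also at an unadjusted p under 0.05 and by DESeq2), beside 28.0% and 21.1% of all tested genes, with a median log2 change of 0.80, beside 0.02. Of the 5 higher, 2 had 0 reads in GM12878. GPX2, the peroxidase of gut and liver-derived epithelium, had 2389 ± 259 CPM in HepG2 (SD, n = 3) and 0 reads in K562 and GM12878, and was at least 313-fold higher in HepG2 than in GM12878 (edgeR adjusted p = 3.22e-26). GPX3, a secreted peroxidase, had 346 ± 43.5 CPM in HepG2 (SD, n = 3) and 0 reads in GM12878. K562 had none higher (4 at an unadjusted p under 0.05, 0 by DESeq2) and 2 lower than GM12878, beside 13.9% and 14.8% of tested genes, with a median of 0.34, beside 0.00. It had none higher (0 by both) and 7 lower than HepG2, beside 17.4% and 26.7%, with a median of -1.41, beside -0.07. With 0 reads in K562 were 1 of the 2 lower than GM12878 and 2 of the 7 lower than HepG2. GPX1, the common cytosolic peroxidase, had 0 reads in both K562 libraries, against 540 ± 70.1 CPM in GM12878 and 586 ± 25.8 CPM in HepG2 (SD, n = 3 each), at least 80.0-fold and 86.7-fold lower in K562 (edgeR adjusted p = 1.65e-17 and 1.01e-18).

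Of 27 NRF2 targets outside glutathione genes, 23 were tested. HepG2 had 14 higher, 5 of them with 0 reads in GM12878, and 1 lower than GM12878, beside 28.0% and 21.1% of all tested genes, with a median log2 change of 1.53, beside 0.02. AKR1C1, an aldo-keto reductase, had 8471 ± 271 CPM in HepG2 (SD, n = 3), 219 ± 71.0 in K562 (SD, n = 2) and 0 reads in GM12878. Its near copies AKR1C2 and AKR1C3 could share reads with it, and had 622 ± 38.8 and 598 ± 87.0 CPM in HepG2 (SD, n = 3) and 0 reads in GM12878. HMOX1, heme oxygenase, was the lower gene, at 39.3 ± 17.3 CPM in HepG2 and 89.7 ± 13.2 in GM12878 (SD, n = 3 each), and was not called by DESeq2. K562 had 9 higher, 4 of them with 0 reads in GM12878, and 2 lower than GM12878, beside 13.9% and 14.8% of tested genes, with a median of 0.56, beside 0.00. It had 4 higher and 12 lower than HepG2, beside 17.4% and 26.7%, with a median of -1.03, beside -0.07. Of the 12 lower, 1 had 0 reads in K562. BLVRB, the biliverdin reductase abundant in red cells, had 1200 ± 449 CPM in K562 (SD, n = 2), 119 ± 8.85 in HepG2 and 17.7 ± 9.07 in GM12878 (SD, n = 3 each). AKR1B1, aldose reductase, was lower in K562, at 23.7 ± 15.2 CPM against 340 ± 47.6 in GM12878. Of 8 export pumps of glutathione conjugates, 1 was tested: ABCC6 had 145 ± 9.43 CPM in HepG2 (SD, n = 3) and 0 reads in the other lines.

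The tested genes whose log2(CPM + 10) ran most like that of each transferase over the 8 libraries were named from 4618 genes with at least 50 CPM in 1 line. The libraries fall into 3 lines, so the Pearson r given is a description of line pattern. It was 0.993 to 0.995 for GSTP1 with MSN, LDHB and IFITM1, and at least 0.9999 for GSTA1 with SLC6A12, SERPINA6 and CPN2. For GSTM3 it was 0.999 with NOTUM, FCGRT and SLC29A4, for MGST2 0.988 to 0.995 with HS1BP3, LLGL2 and TMED1, and for MGST1 0.986 with CDK2AP1 and 0.968 with TMBIM6. For GSTO1 it was 0.956 to 0.986 with ADIPOR1, NDUFS8 and DAZAP2, for MGST3 0.980 to 0.981 with LRRC47, R3HDM4 and TPM1, and for GSTK1 0.926 to 0.958 with ASNS, RPL28 and RPLP2. LDHB, a lactate dehydrogenase subunit, shared with GSTP1 the 0 reads in HepG2, with 857 CPM in K562 and 1201 CPM in GM12878.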

How the data were processed

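Total RNA of 8 libraries was sequenced directly on nanopores, per the labels. The submitters' processing notes name minimap2 and hg38, and the deposited files are abundance tables from TALON, per the labels. Versions are not given in the sources used here. The deposited values are raw read counts per transcript model, not normalized, per the file headers, beside the exon number and length of each model, which are other values of the deposited tables. Coordinates came from GENCODE release 29 on GRCh38.

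Counts of all models were summed per annotated gene and filtered with filterByExpr, which left 4778 genes. After TMM scaling, the robust quasi-likelihood test of edgeR 4.0.16 under R 4.3.3 was applied to all libraries in a single model, two-sided, with Benjamini-Hochberg adjustment over all tested genes. That test gives no standard error, so each SE printed with a log2 change was computed back from it, as the size of the change divided by the square root of its F statistic, and is an approximation that carries no information beyond the change and its p-value. CPM use the tested genes and TMM factors. A line with 0 reads was set at 3 counts over the line, which is 3.76 CPM for HepG2, 6.76 for K562 and 7.63 for GM12878. Intervals are exact binomial (95%), and these and the floors cover counting error only. The 9 genes, the gene lists and the named-gene rule (all members, up to 3 called genes of largest change in log2(CPM + 10) per list and direction, and the 3 genes of most alike pattern) were chosen with earlier results of these data known. A gene that the rule takes is not reported here. Alternatives were DESeq2 1.42.0, its size factors, no filter, 2 lines only, a replicate block, known models alone, other model sets for usage, and leaving out each library.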

Additional observations from a re-analysis of the deposited data

How the results depend on the processing

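Over 23 tests of single genes and their alternatives, 297 of 319 values kept the call with no change of sign, 7 lost the call, 12 gained it and 3 changed sign. The 297 include GSTM3 in K562 against GM12878 at 0.00, which has no direction, with known models alone and without K562 replicate 2. None of the 3 that changed sign was called either way, and each rested on 1 library: GSTK1 in HepG2 against GM12878 was -0.08 without GM12878 replicate 1, and without K562 replicate 2 MGST2 in K562 against GM12878 was -0.30 and GSTO1 in K562 against HepG2 was -0.12. With a library left out these ran from -0.08 to 0.76, from -0.30 to 1.52 and from -0.12 to 0.53. The cause was not tested. With a library left out in turn, 5 family genes were called in HepG2 against GM12878 each time, though without GM12878 replicate 2 MGST3 was called and MGST1 was not, 0 to 4 in K562 against GM12878, 0 without K562 replicate 2 and 4 without K562 replicate 1, and 5 to 7 in K562 against HepG2. Known models alone gave 1 family gene in K562 against GM12878, GSTK1, beside 459 called of 1702 genes tested. MGST3 has no value in that setting. MGST3 in HepG2 against GM12878 was called with DESeq2 size factors (1.03), no filter (1.07), the replicate block (1.08) and without GM12878 replicate 2 (1.27), and in K562 against HepG2 without K562 replicate 1 (1.08). GSTK1 in K562 against HepG2 was not called by DESeq2 (1.06, adjusted p = 0.0510).

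Calls over all genes, 2348 in HepG2 against GM12878, 1371 in K562 against GM12878 and 2105 in K562 against HepG2, became 777, 459 and 714 with known models alone, where 1702 genes were tested, and 3746 and 3298 with no filter in the 2 comparisons with HepG2. Usage calls, 13, 4 and 9, became 20, 8 and 4 with incomplete splice matches added and 42, 23 and 18 over all classes. With a library left out they ranged from 6 to 21 in HepG2 against GM12878 and from 2 to 8 in K562 against HepG2. The causes were not tested. Replicate numbers did not pair the libraries: same-numbered libraries correlated at -0.0536 to 0.0381 in their deviations from the line means. With the replicate block, usage calls in K562 against HepG2 were 2 and GSTK1 in that comparison was 0.93 (edgeR adjusted p = 0.0265), under the 2-fold limit. Depth limits GM12878 most: 3 counts over that line are 7.63 CPM, and MGST2 and MGST3 had 19 reads each there.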
